A study of Bos taurus with 20 samples.

Results

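The column of values deposited for each steer is headed by a code made of a letter, a D, 2 digits and a last digit. Libraries whose 2 digits are 12 were compared here with libraries whose 2 digits are 01. Neither the sample labels nor the paper explains the code, so the sets are library sets of unknown meaning, and anything else that the libraries of a set share cannot be told apart from the set. The sets hold 6 libraries (coded 12) and 8 libraries (coded 01), 14 of the 20 libraries in all, and the 6 libraries coded 03 were left out.

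The rumen is the large forestomach in which microbes ferment the feed of cattle. Its lining is a stratified squamous epithelium raised into papillae, whose cells absorb and partly oxidise short-chain fatty acids, are joined by desmosomes and tight junctions, and rest on connective tissue with blood vessels and smooth muscle. Its cells renew from a basal layer, which is rich in mitochondria.

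Each library came from the rumen epithelial tissue of 1 Hereford x Angus hybrid steer, and the study compared steers of high and low residual feed intake (H-RFI and L-RFI), that is, steers that ate more or less than their size and growth predict. All steers were fed the same finishing diet and sampled at slaughter, no steer was given a treatment that the labels name, and ages were not used here. The set coded 12 was made up of steers 105, 115 and 155 (letter A, labelled high RFI) and steers 317, 345 and 409 (letter B, labelled low RFI). The set coded 01 was made up of steers 11, 23 and 33 (letter A, high RFI), 201 and 205 (letter B, high RFI), 219 (letter B, low RFI) and 451 and 455 (letter C, low RFI). The RFI label is thus nearly balanced between the sets, with 3 high and 3 low in one and 5 high and 3 low in the other. The study's own list of steers gives the opposite RFI group for 5 of the 14 steers, all of them coded 01 (steers 23, 33, 205, 219 and 455), and does not list steer 345. Every letter A library was labelled high RFI, and letter C occurred only in the set coded 01.

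Values were deposited as CPM (reads per 1000000 counted reads of the library), from which whole reads were recovered. Gene reads per library were 10964642 to 11860809 (median 11750433) in the set coded 12 and 10140664 to 13960297 (median 12093671) in the set coded 01. The mean difference of -515245 reads was smaller than the spread between libraries (exact permutation test, two-sided, p = 0.361). A value of 0 allows up to 3 reads, or 0.215 to 0.296 CPM depending on the library, which covers counting error only. No pair of the 14 libraries was a repeat of one library.

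The tissue label was checked against the few marker genes whose Ensembl ID the study pairs with a symbol. Of the keratinocyte markers, KRT14 (a basal cell keratin) had 1 to 16 reads in the set coded 12 and 0 to 9 in the set coded 01. PKP1 (a desmosome protein) had at most 8 reads and ZNF750 (a transcription factor of keratinocyte differentiation) at most 6 reads in any library. These 3 defining markers were thus at or near 0 in both sets, while LYPD3 (a surface protein of squamous epithelium) had 31 to 77 reads and PKP3 (a desmosome protein) 194 to 416 reads. The summed level of the 5 keratinocyte markers was 23.5 to 37.0 CPM in the set coded 12 and 25.5 to 36.2 CPM in the set coded 01. It came mostly from PKP3 and LYPD3 (at most 30.8 and 5.81 CPM), as KRT14, PKP1 and ZNF750 reached at most 1.35, 0.62 and 0.59 CPM. The 3 defining markers thus lent the tissue label no support. KDR (a receptor of endothelial cells) and MYL9 (a myosin light chain of smooth muscle) were both read in every library, and their values are given with the gene groups below. In such bulk samples, fewer cells of a type and less RNA per cell cannot be told apart.

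The sets differed in how reads were spread over genes. Genes detected by 1 read or more numbered 16479 to 17199 in the set coded 12 and 17088 to 17657 in the set coded 01, with means of 16860 ± 277 (SD, n = 6) and 17401 ± 193 (SD, n = 8). The 2 ranges overlapped in steers 409 and 451 only. The mean difference of -541 genes was larger than the spread (exact permutation test over all 3003 splits, two-sided, p = 0.000999, adjusted p = 0.001998 over 6 measures), and it was -502 genes after every library was drawn down to 10140664 reads. The 100 most abundant genes of a library took 26.1 ± 3.49% of its reads in the set coded 12 and 21.3 ± 1.28% in the set coded 01 (p = 0.00333, adjusted p = 0.004995, exact permutation test). The 10 most abundant genes went the other way, with 6.69 ± 0.106% against 7.42 ± 0.493% of reads (exact permutation p = 0.00599). The TMM factor, which scales a library so that most genes match across libraries, was 0.909 ± 0.111 against 1.08 ± 0.0449 (p = 0.000666, adjusted p = 0.001998, exact permutation test).

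In a principal component analysis of the 500 most variable genes, PC1 carried 89.8% of the variance and PC2 3.70%. Mean PC1 scores were 27.5 ± 26.4 (SD, n = 6) in the set coded 12 and -20.6 ± 6.35 (SD, n = 8) in the set coded 01, and the exact permutation p of 0.000333 (adjusted p = 0.001998) is the smallest that 3003 splits can give. The sets did not overlap on PC1, but their edges were close. Steers 409 and 115 scored -4.93 and -0.0146, next to steer 451 of the other set at -6.99. Steers 105, 317, 345 and 155 scored 23.7, 36.2, 49.6 and 60.5 and stood apart from all other libraries. Results are therefore also given without these 4 libraries, a setting chosen after the scores were seen, in which 2 libraries of the set coded 12 are left. PC2 did not separate the sets (difference of -0.778, exact permutation p = 0.787).

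**Figure D1:**
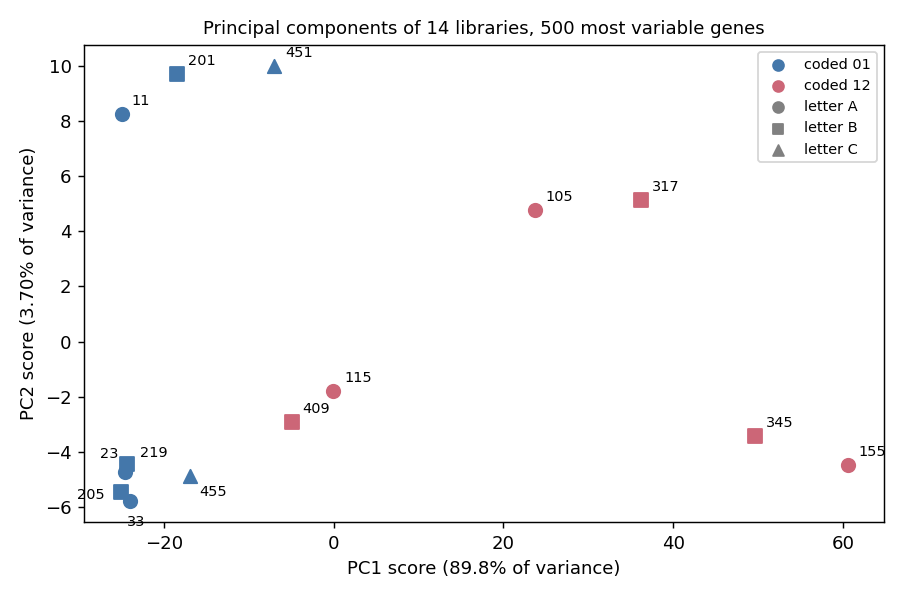
PC1 score (x axis) against PC2 score (y axis) of the 14 libraries from the 500 most variable genes on the log2(TMM-scaled CPM + 1) scale. Each point is 1 library, with the steer number beside it, the color for the set and the shape for the letter of the code. The 6 libraries coded 12 spread along PC1 from -4.93 to 60.5, and the 8 libraries coded 01 lie between -25.1 and -6.99.

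Across the 14337 genes tested, 9951 (69.4%) differed between the sets at an adjusted p below 0.05 (limma, Benjamini-Hochberg). Of these, 4857 (33.9% of genes tested) were higher and 5094 (35.5%) were lower in the set coded 12. For each gene the test took a common spread over both sets. The set coded 12, the smaller one, was the more variable on PC1 (SD of 26.4 against 6.35). For genes in which that also holds, p-values may be too small. The median size of the log2 difference was 0.49, with a median standard error of 0.15, and the extremes were 3.72 and -4.40. Large differences were mostly decreases, with 2100 called genes lower and 567 higher by more than 1 on the log2 scale. The sets did not overlap at all in 2735 genes (19.1%), of which 1386 (9.67%) were higher and 1349 (9.41%) lower in the set coded 12. With CPM as deposited in place of TMM-scaled CPM, the median difference of all genes moved from -0.01 to -0.23, and the calls became 3167 higher and 6551 lower. Directions below are therefore relative to the bulk of the genes. By count models on the recovered reads, edgeR called 9766 genes (68.1%) and DESeq2 10153 (70.8%). Without steers 155 and 345, the highest on PC1, 8109 genes (55.6%) were called, and without steers 105, 155 and 317, 6298 (42.9%). Without steers 105, 155, 317 and 345, 1891 genes (12.8%) were called, 655 higher and 1236 lower, and 0 of the genes called in both fits changed direction. Both fits share libraries, so such a change could hardly occur.

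**Figure D2:**
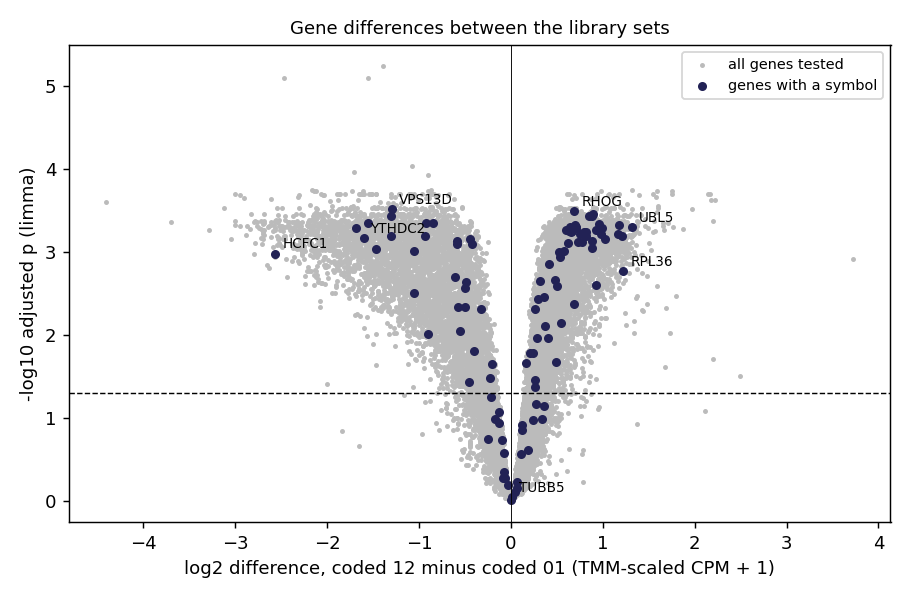
Log2 difference between the sets (x axis, coded 12 minus coded 01, TMM-scaled CPM + 1) against -log10 of the adjusted p from limma (y axis) for 14337 genes in grey, with the 106 tested genes that have a symbol in dark blue. The dashed line marks an adjusted p of 0.05, and the left arm, where HCFC1 lies at -2.56, reaches farther than the right arm, where UBL5 lies at 1.32.

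Genes are named only where the study pairs the Ensembl ID with a symbol. The study made that list of genes by comparing RFI groups in most of these libraries, so it is no even sample of the transcriptome, and its make-up is no independent evidence of any direction. Of 112 such IDs, 106 passed the filter on low reads. Of the 106 genes, 53 were higher and 29 lower in the set coded 12, and 24 did not pass, against 33.9% and 35.5% of all genes tested. The sets did not overlap in 26 of the 106 genes (18 higher, 8 lower), against 19.1% of all genes. The median log2 difference was 0.25, against -0.01 over all genes. The IDs below the filter were those of KRT14, PKP1, ZNF750, CEACAM19, LY6G6C and U2.

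UBL5 (ENSBTAG00000030592), a small ubiquitin-like protein of pre-mRNA splicing, had the largest increase among these genes. Its level ranged from 65.0 to 222 TMM-scaled CPM (median 119) in the set coded 12 and from 41.7 to 64.9 (median 46.0) in the set coded 01. All 6 libraries coded 12 were above all 8 others, although steer 409 (65.0) lay just above steer 451 (64.9). The log2 difference was 1.32 ± 0.23 (SE), a 2.49-fold increase (adjusted p = 0.000503, limma), and it was 0.53 without the 4 libraries (adjusted p = 0.0296, limma).

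RPL36 (ENSBTAG00000001794), a protein of the large ribosomal subunit, ranged from 35.5 to 155 TMM-scaled CPM (median 73.1) in the set coded 12 and from 23.4 to 47.4 (median 29.3) in the set coded 01. The sets overlapped at their edges. The log2 difference was 1.22 ± 0.28 (adjusted p = 0.00172, limma), and the call was lost without the 4 libraries (0.36, adjusted p = 0.294, limma).

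TMSB4, the thymosin that holds actin monomers ready for assembly, is listed under 2 Ensembl IDs, between which reads may be split by the counting. ENSBTAG00000038488 ranged from 1046 to 3466 TMM-scaled CPM (median 2005) in the set coded 12 and from 690.5 to 1057 (median 813) in the set coded 01. Its log2 difference was 1.21 ± 0.23 (adjusted p = 0.000651, limma), and steer 409, the lowest of its set, overlapped the other set. ENSBTAG00000034580 differed by 0.99 ± 0.18 (adjusted p = 0.000523, limma). Without the 4 libraries neither ID passed, with log2 differences of 0.40 and 0.41.

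Other genes among the 12 with the largest increases were RPS15 (small ribosomal subunit, 1.16 ± 0.22), RPL10 (large subunit, 1.02 ± 0.20), PSMB6 (a catalytic subunit of the proteasome, 0.98 ± 0.18), RAB25 (a small GTPase of membrane recycling in epithelia, 0.96 ± 0.16), BANF1 (a DNA-binding protein of the nuclear envelope, 0.93 ± 0.17), TMSB10 (an actin monomer binding thymosin, 0.93 ± 0.23) and YPEL3 (0.90 ± 0.13), each as log2 difference ± SE. RAB25 and YPEL3 were without overlap between the sets and passed without the 4 libraries (0.56 and 0.45). There, RPS15, RPL10, PSMB6 and BANF1 differed by 0.45, 0.40, 0.40 and 0.43 and TMSB10 by 0.13, and none of these passed (adjusted p from 0.0557 to 0.604, limma). TMSB10 was also not called without steers 105, 155 and 317 (0.51, adjusted p = 0.0851). Steer 155 was the highest library of the set coded 12 in all of these but YPEL3, where it was steer 345.

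HCFC1 (ENSBTAG00000011904), a large coregulator of transcription, had the largest decrease. Its level was 6.94, 16.6, 32.5, 48.1, 154 and 160.0 TMM-scaled CPM in steers 155, 345, 317, 105, 115 and 409, all coded 12. In the set coded 01 it ranged from 160.8 in steer 451 to 303 in steer 219 (median 258). The set coded 12 was thus wide, with 4 low libraries and 2 libraries just under the lowest of the other set. The log2 difference was -2.56 ± 0.55 (SE), a 5.91-fold decrease (adjusted p = 0.00105, limma), and it was -0.69 without the 4 libraries (adjusted p = 0.0367, limma).

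CCDC186 (ENSBTAG00000020233), a coiled-coil protein of the trans-Golgi and of secretory vesicle formation, ranged from 5.92 to 30.6 TMM-scaled CPM (median 12.1) in the set coded 12 and from 29.9 to 63.2 (median 47.7) in the set coded 01. Only steer 409 of the set coded 12 was above steer 451. The log2 difference was -1.69 ± 0.30 (adjusted p = 0.000519, limma).

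YTHDC2 (ENSBTAG00000014099), an RNA helicase that binds methylated adenosine, ranged from 8.65 to 49.0 TMM-scaled CPM (median 20.6) against 46.8 to 82.6 (median 74.2). The log2 difference was -1.60 ± 0.31 (adjusted p = 0.000686, limma), and the overlap again came from steers 409 and 451. NBEAL1 (ENSBTAG00000014469), a BEACH domain protein of membrane traffic, ranged from 3.06 to 7.56 TMM-scaled CPM (median 4.61) against 6.51 to 22.6 (median 19.3), a log2 difference of -1.55 ± 0.26 (adjusted p = 0.000453, limma). Without the 4 libraries the log2 differences were -0.70 for CCDC186 (adjusted p = 0.0438), -0.57 for YTHDC2 (adjusted p = 0.0538) and -1.18 for NBEAL1 (adjusted p = 0.0511), all by limma.

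Other genes among the 12 with the largest decreases were GCC2 (a golgin of the trans-Golgi, -1.47 ± 0.30), GOLGB1 (giantin, the largest golgin, -1.31 ± 0.20), APBB2 (an adaptor of the amyloid precursor protein, -1.30 ± 0.25), VPS13D (a lipid transfer protein, -1.29 ± 0.18), SLC35D2 (a nucleotide sugar transporter of the Golgi, -1.06 ± 0.22), MDM4 (an inhibitor of p53, -0.93 ± 0.18) and FAM13A (-0.92 ± 0.15), each as log2 difference ± SE. The sets did not overlap in GCC2, GOLGB1, VPS13D and MDM4. Without the 4 libraries APBB2 and SLC35D2 were not called (-0.51 and -0.50, adjusted p of 0.102 and 0.188, limma), and GCC2, GOLGB1, VPS13D, MDM4 and FAM13A were, at -0.51, -0.69, -0.76, -0.92 and -0.66. MDM4 varied little within the set coded 12, with 9.28 to 12.4 TMM-scaled CPM in the set coded 12 and 13.4 to 30.2 in the set coded 01.

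**Figure D3:**
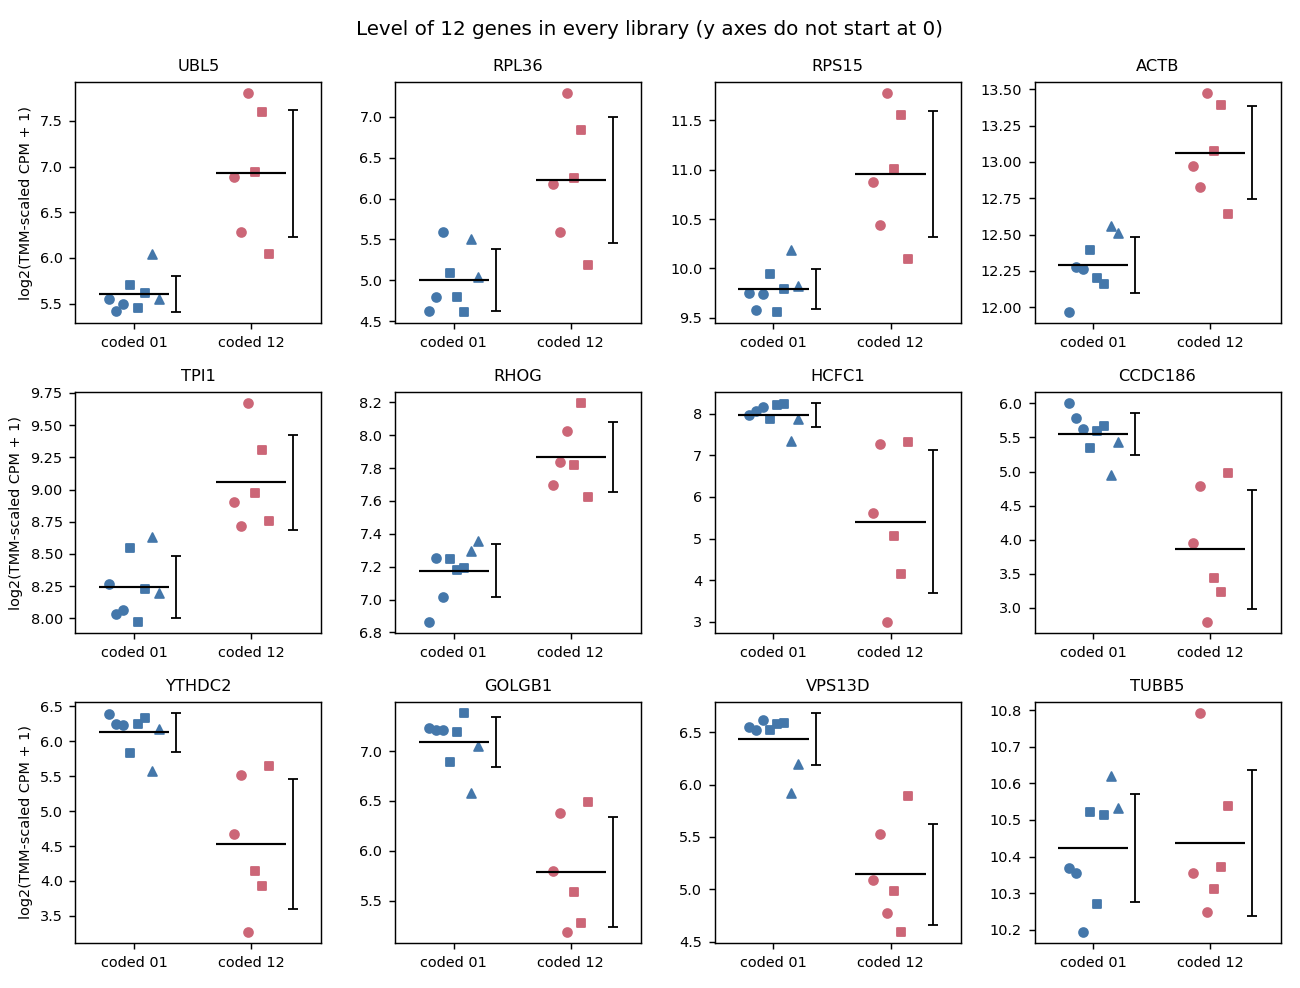
Level of 12 genes on the log2(TMM-scaled CPM + 1) scale (y axis, which does not start at 0) in each library of both sets (x axis), with the mean as a horizontal line, the SD as the bar beside it and the letter of the code as the point shape. HCFC1 spans 6.94 to 160.0 TMM-scaled CPM in the set coded 12 and 160.8 to 303 in the set coded 01, whereas TUBB5 overlaps throughout. ACTB, TPI1, RHOG and TUBB5 were chosen for the plot after their values were seen.

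The genes with a symbol were also described by role, in lists that hold 1 to 13 tested genes. All lists were drawn from the 106 genes with a symbol, of which 53 were higher and 29 lower (median 0.25). The shares over all genes given below do not allow for this skew. Genes outside the 4 members with the largest differences were named after their values were seen, unless they were named above or as markers. All 4 ribosomal protein genes, RPL36, RPS15 and RPL10 among them, were higher in the set coded 12, against 33.9% of all genes. Their median log2 difference was 1.17, the highest of all lists. Without the 4 libraries it was 0.42, and 1 of the 4 passed, against 12.8% of all genes. Ribosomal proteins have many near-identical copies in the genome, so their reads depend on how the counting treated these.

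Among 10 genes of actin and tubulin, 8 were higher, 0 were lower and 2 did not pass, against 33.9% higher and 35.5% lower over all genes (median 0.76, against -0.01 over all genes). ACTB (beta-actin, 6377 to 11360.0 against 3999 to 6032 TMM-scaled CPM), TUBA4A (an alpha-tubulin, log2 difference 0.66 ± 0.12) and RHOG (a GTPase that acts on actin, 195.8 to 292 against 115 to 163 TMM-scaled CPM) did not overlap between the sets. TUBB5 (a beta-tubulin) ranged from 1217 to 1772 against 1171 to 1571 TMM-scaled CPM, a log2 difference of 0.01 with a 95% interval of -0.20 to 0.23, and DSTN (an actin severing protein) differed by 0.34 ± 0.18 (adjusted p = 0.103, limma), or 0.53 without steer 115, its lowest library in the set coded 12 (adjusted p = 0.00228). Without the 4 libraries 3 of the 10 were called, MYL9, TUBA4A and RHOG, against 12.8% of all genes.

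The smooth muscle marker MYL9 was 449 to 661 TMM-scaled CPM (median 553) in the set coded 12 and 233 to 402 (median 315) in the set coded 01. The sets did not overlap, the log2 difference was 0.85 ± 0.13 (adjusted p = 0.000365, limma) and the call held without the 4 libraries (0.55, adjusted p = 0.0380, limma). The endothelial marker KDR ranged from 18.9 to 42.3 TMM-scaled CPM (median 32.9) against 34.0 to 51.6 (median 45.6). It was lower in the set coded 12 by a log2 difference of -0.56 ± 0.17 (adjusted p = 0.00890, limma), and without the 4 libraries it was -0.23 (adjusted p = 0.341, limma). LYPD3 ranged from 2.91 to 6.15 against 2.90 to 5.27 TMM-scaled CPM, a log2 difference of 0.04 with a 95% interval of -0.26 to 0.35. The single genes MYL9 and KDR thus moved with the sets in opposite directions, in a comparison that called 69.4% of all genes. MYL9 moved in the same direction as the called actin genes of its list. A change in cell types cannot be read from MYL9 and KDR alone, and their part in the other results was not tested.

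Of 16 genes of epithelium and junctions, 11 passed the filter. RAB25, SERPINB8 (a protease inhibitor, 0.88 ± 0.17) and S100A11 (a calcium-binding protein of keratinocytes, 0.49 ± 0.17) were higher, LLGL2 (a cell polarity protein, -0.23 ± 0.09) was lower, and 7 did not pass (median 0.18), so that 4 of 11 were called against 69.4% of all genes. RAB25 ranged from 18.5 to 50.3 TMM-scaled CPM in the set coded 12 and from 13.2 to 17.0 in the set coded 01 and was the only one of the 11 without overlap, against 19.1% of all genes. PKP3 differed by 0.36 ± 0.17 (adjusted p = 0.0714, limma) and passed without steer 115, 201 or 409 (adjusted p of 0.00987, 0.0449 and 0.0324, limma). By the count models on all libraries PKP3 also passed (0.41, adjusted p = 0.0487, edgeR, and 0.41, adjusted p = 0.0449, DESeq2). S100A11 was not called without steer 105 or 317 (adjusted p of 0.0557 and 0.0578, limma) or with CPM as deposited (0.24, adjusted p = 0.164), and its difference was -0.13 without the 4 libraries (adjusted p = 0.528, limma), where the median of the list was also -0.13. LLGL2 was not called when steer 11, 115, 155, 201, 219, 409 or 451 was left out (adjusted p from 0.0519 to 0.0790, limma), but it was called without the 4 libraries (-0.43, adjusted p = 0.0318) and with CPM as deposited (-0.48, adjusted p = 0.000617).

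Of 9 genes of ubiquitin and proteasome, 5 were higher, 2 were lower and 2 did not pass, against 33.9% higher and 35.5% lower over all genes. Their median of 0.26 was close to that of the genes with a symbol (0.25). PSMB6 (96.8 to 246 against 64.5 to 100.5 TMM-scaled CPM) and PSMB5 (another catalytic subunit of the proteasome, 63.0 to 139 against 45.8 to 64.9) overlapped at the edges only, and MDM4 was one of the lower genes. Of 7 genes of glycolysis and mitochondria, 6 were higher and 0 lower (median 0.69), against the same shares. They included ETHE1 (sulfide oxidation, 0.88 ± 0.18), TPI1 (triosephosphate isomerase, 0.81 ± 0.15), COX8A (cytochrome c oxidase, 0.71 ± 0.13) and SLC25A39 (a mitochondrial carrier, 0.69 ± 0.12). TPI1 ranged from 421 to 814 TMM-scaled CPM in the set coded 12 and from 249.8 to 395 in the set coded 01. HK1 (hexokinase), the gene of this list that did not pass, differed by -0.06 with a 95% interval of -0.24 to 0.12. With CPM as deposited HK1 was lower and passed (-0.31, adjusted p = 0.0298, limma). Without the 4 libraries 2 genes of each list were called, against 12.8% of all genes.

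All 5 genes of lysosome and proton pump were higher, against 33.9% of all genes, with a median of 0.24, but with CPM as deposited the median was -0.02, and MAN2B1 (lysosomal mannosidase), PLBD2 (a lysosomal hydrolase) and ATP6AP1 (a proton pump accessory protein) turned to -0.02, -0.05 and -0.09. ATP6V0D1 (a subunit of the proton pump, 0.66 ± 0.12) and GABARAP (an autophagosome protein, 0.54 ± 0.12) kept their direction. MAN2B1 was not called in the 12 libraries of letters A and B (adjusted p = 0.0527), nor there with letter and last digit of the code as a block (0.21, adjusted p = 0.0949, limma). None of the 5 was called without the 4 libraries, against 12.8% of all genes. Of 4 genes of heat shock and early response, HSPB1 (0.55 ± 0.16), JUNB (0.40 ± 0.13) and HSF1 (0.36 ± 0.09) were higher (3 of 4, against 33.9% of all genes), and DNAJB1 differed by 0.24 ± 0.13 (adjusted p = 0.108, limma), or -0.02 with CPM as deposited, and passed without steer 201 or 451 (adjusted p of 0.0327 and 0.0418). JUNB and HSF1 were not called with CPM as deposited (adjusted p of 0.268 and 0.190, limma), and none of the 4 was called without the 4 libraries.

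Lipid synthesis, endocytosis and signalling were small lists with called genes in both directions. In lipid synthesis, AGPAT2 (phosphatidic acid synthesis, 0.69 ± 0.18) and TECR (fatty acid elongation, 0.62 ± 0.12) were higher, SREBF2 (the transcription factor of cholesterol synthesis, -0.90 ± 0.28) and FAR1 (fatty alcohol synthesis, -0.49 ± 0.12) were lower, and the fifth, MBOAT7, differed by 0.11 ± 0.09 (adjusted p = 0.272, limma). In endocytosis, SH3GLB2 was higher (0.37 ± 0.11), SH3GL1 was lower (-0.33 ± 0.09), and DNM2 (dynamin, -0.13 ± 0.07) and HGS (endosomal sorting, -0.10 ± 0.06) did not pass, although DNM2 did without steer 115 (adjusted p = 0.0460, limma). In signalling, GNB2 (0.71 ± 0.12) and GNB1 (0.26 ± 0.07), beta subunits of G proteins, and PPP2R1A (the scaffold of phosphatase 2A, 0.64 ± 0.11) were higher, and 2 genes, KDR among them, were lower. With CPM as deposited GNB1, SH3GLB2 and AGPAT2 were not called (0.0043, 0.11 and 0.44, adjusted p of 0.958, 0.200 and 0.0549, limma), and DNM2 and HGS were, at -0.39 and -0.35. Of these 14 genes, 0 were called without the 4 libraries, against 12.8% of all genes.

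Golgi and vesicle traffic was the list with the lowest median among those of more than 1 tested gene, at -1.39 over 6 genes, or -0.69 without the 4 libraries. CCDC186, NBEAL1, GCC2, GOLGB1 and VPS13D were lower, and CNIH1 (cargo export from the endoplasmic reticulum, 0.26 ± 0.11) was higher. The call of CNIH1 was lost when steer 23, 33, 105, 155, 201, 205, 219, 317, 345 or 455 was left out (adjusted p from 0.0513 to 0.105, limma), and with CPM as deposited (0.0048, adjusted p = 0.958). The list thus had 5 of 6 lower, against 35.5% of all genes. GOLGB1 ranged from 35.4 to 89.0 TMM-scaled CPM in the set coded 12 and from 94.6 to 166 in the set coded 01. Without the 4 libraries 4 of the 6 were called (CCDC186, GCC2, GOLGB1 and VPS13D), against 12.8% of all genes. Of 13 genes of nucleus and RNA, 5 were higher, 7 were lower and 1 did not pass (median -0.21), against 33.9% and 35.5% of all genes. Its largest differences were those of HCFC1, YTHDC2, BANF1 and RUVBL1 (a DNA helicase of chromatin complexes, 0.73 ± 0.15). Of the small RNA genes, U2 was below the filter and SNORD22 was lower (-0.50 ± 0.14, at 1.71 to 3.63 against 2.99 to 5.09 TMM-scaled CPM).

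**Figure D4:**
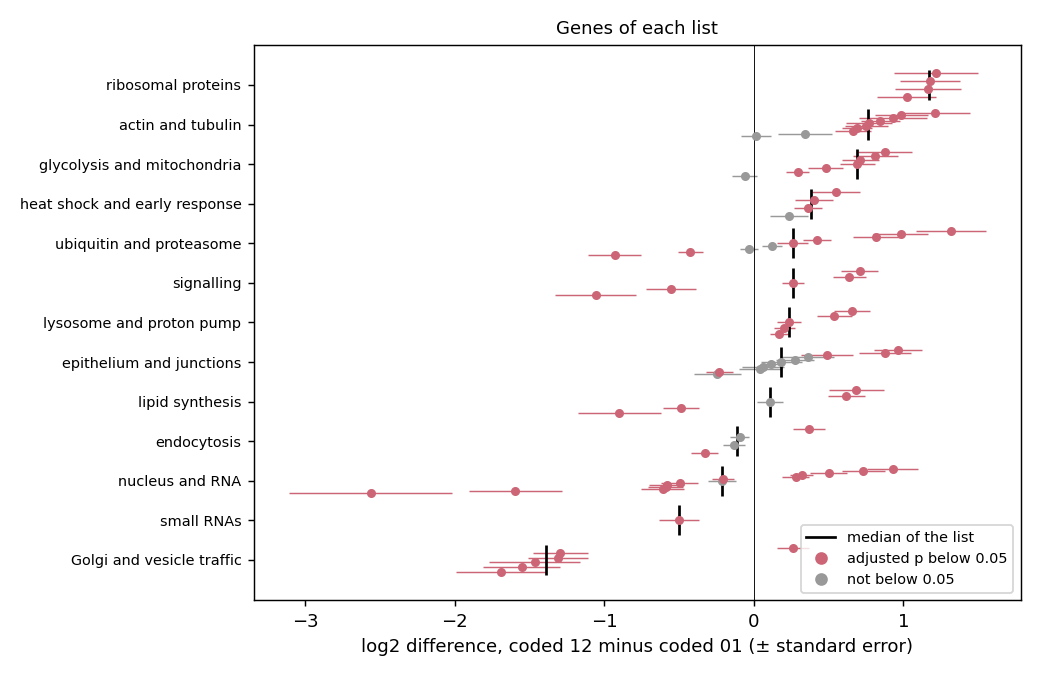
Log2 difference between the sets (x axis, coded 12 minus coded 01, with bars of 1 standard error) of each tested gene in 13 lists by role (y axis), red where the adjusted p of limma is below 0.05 and grey otherwise, with the median of each list as a black mark. The medians run from -1.39 for Golgi and vesicle traffic to 1.17 for ribosomal proteins.

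Among Ensembl IDs that the study does not pair with a symbol, those with the smallest p-values in each direction were picked. They separated the sets in every library, steers 115 and 409 included, which follows in part from how they were picked. The sets did not overlap in 19.1% of all genes tested. ENSBTAG00000038312 was 17.6 to 25.5 TMM-scaled CPM in the set coded 12 and 48.5 to 66.0 in the set coded 01 (log2 difference -1.40 ± 0.10, adjusted p = 5.78e-06, limma). ENSBTAG00000005603 was 0.918 to 1.58 against 4.54 to 8.14 TMM-scaled CPM (-1.55 ± 0.12, adjusted p = 7.89e-06, limma). ENSBTAG00000025848 was 112 to 237 against 66.0 to 93.0 TMM-scaled CPM (1.32 ± 0.14), and ENSBTAG00000006779 was 2.82 to 6.83 against 0.548 to 1.36 TMM-scaled CPM (1.59 ± 0.17). In ENSBTAG00000038312 the highest library coded 12 was steer 155 and the lowest steer 345, so that libraries at the far end of PC1 lay at both edges of its range.

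The 6 libraries coded 12 were not alike. In the 9951 called genes, steer 155 lay farthest in the direction of the difference in 6552 (65.8%) and steer 345 in 2145 (21.6%), whereas steer 409 lay nearest to the other set in 6144 (61.7%) and steer 115 in 2871 (28.9%). The median shift of these genes from the mean of the set coded 01, taken in the direction of the difference, was 1.15, 1.01, 0.77, 0.69, 0.34 and 0.25 on the log2 scale in steers 155, 345, 317, 105, 115 and 409. Within the set coded 01, steer 451 was shifted by 0.22 and the other 7 by -0.11 to 0.06. The same order was seen in the TMM factor, which was 0.751 in steer 155 and 1.05 in steer 409, and in the share of reads in the 100 most abundant genes, which was 30.6% and 21.6%. Both measures therefore moved with the gene differences, and their part in these was not tested.

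Letters A and B share no library, so the difference between the sets was also taken within each, with 3 libraries against 3. All letter A libraries were labelled high RFI, whereas in letter B the 3 libraries coded 12 were labelled low RFI and the 3 coded 01 were labelled high in 2 steers and low in 1. By the study's own list, steers 23 and 33 of letter A and steer 205 of letter B were low RFI. That list gives steer 219 of letter B as high RFI and does not hold steer 345. By the list, the sets thus differ in RFI make-up within letter A as well. Within letter A, 3739 of 14349 genes (26.1%) were called. Within letter B, 0 of 14320 genes were called by limma, 6333 passed at an unadjusted p below 0.05, and the smallest adjusted p was 0.0712. The difference had the same sign in both letters in 13118 of the 14183 genes tested in both (92.5%), and in 3680 of the 3685 genes called in letter A (99.9%). Among the 106 genes with a symbol it was the same in 101. UBL5 differed by 1.5 in letter A and 1.27 in letter B, and HCFC1 by -2.77 and -2.59, although HCFC1 passed in neither (adjusted p of 0.0677 and 0.0712, limma). With the letter as a covariate over all 14 libraries, 9574 genes (66.8%) were called.

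The test of whether the difference between the sets itself differed between letters called 0 of 14247 genes (limma interaction term, 28 at an unadjusted p below 0.05). The same test between the RFI labels called 0 of 14337 genes (152 unadjusted), or 0 with the RFI groups of the study's list (86 unadjusted). Median standard errors of these terms were 0.35 for letters and 0.31 for RFI labels, above their median sizes of 0.13 and 0.19. The unadjusted counts were lower than a threshold of 0.05 gives by chance alone. The tests thus had little power, and 0 calls do not show that the difference is the same across letters or RFI groups. With the RFI label as a covariate, 9745 genes differed between the sets, and 8971 did with the study's list, which leaves out steer 345.

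**Figure D5:**
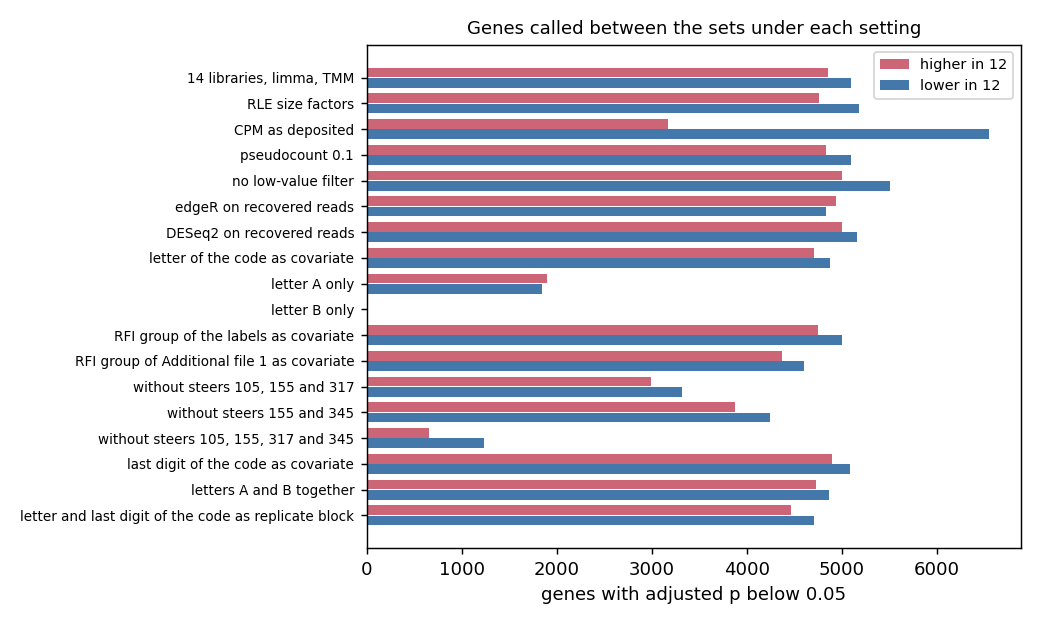
Number of genes with an adjusted p below 0.05 (x axis), higher in red and lower in blue in the set coded 12, for the test on 14 libraries and 17 other settings (y axis). The bars are empty for letter B alone, reach 655 and 1236 without steers 105, 155, 317 and 345, and shift to 3167 higher and 6551 lower with CPM as deposited.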

How the data were processed

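The authors deposited 1 table of CPM per steer. Per the labels, RNA was extracted from rumen tissue, and the submitters' processing notes name CASAVA 1.8, TopHat2 2.0.10, HTSeq and UMD3.1, whereas the paper's methods give another extraction kit. The read strand used in counting was not given in the sources used here, so reads of overlapping or antisense genes may be mixed. Taking the lowest value above 0 in a column as 1 read gave whole reads for 100.0% of values (tolerance 0.01). The tables list 24616 genes, and 19801 had a read in the 14 libraries.

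Of the genes, those kept by filterByExpr (minimum count 10) entered limma 3.58.1 (lmFit, eBayes with trend) on log2(TMM-scaled CPM + 1), with Benjamini-Hochberg adjustment over all 14337 and a threshold of 0.05. Fold changes on this scale understate those of low genes. Reads and factors came from edgeR 4.0.16 in R 4.3.3, and edgeR's quasi-likelihood test and DESeq2 1.42.0 were run on the recovered reads as alternatives. The 6 library measures were compared by exact permutation over 3003 splits. The limma, edgeR and DESeq2 fits of set against set were tried on simulated reads, and the permutation test on a small made-up example. The other steps were not tried on simulated data. Each library came from a separate steer, so p-values measure the spread between libraries, in which animal and handling are mixed. Since the code is unexplained, it is not known whether the libraries of a set are independent of each other.

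Symbols came from the study's list of 122 entries, of which 9 had no symbol and 1 joined several IDs. Its fold changes and p-values were not used. None (0) of the IDs matched the reference gene table used here, so no coordinates, gene lengths or sequences are given, and levels were not compared between genes. The members and lists were chosen with earlier results of these data known. Named were the 12 genes with a symbol and the largest differences in each direction (the first 4 in full), up to 4 members a list, the markers KRT14, LYPD3, KDR and MYL9, and 2 unnamed IDs a direction by smallest p. ACTB, TUBA4A, RHOG, TUBB5, DSTN, LLGL2, HK1, ATP6AP1, MBOAT7, GNB1, CNIH1 and the IDs below the filter other than KRT14 were named beyond that rule after their values were seen. A few genes that the rule chose are not reported here.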

Additional observations from a re-analysis of the deposited data

Results flagged for a closer look

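Among 122 sets of values examined, 8 held a library that lay far from the others of its set relative to the whole range of the set, where chance gives about 1 in 20. In 5 of these the library was steer 451, coded 01 with letter C. Its PC1 score was -6.99 (next in its set -16.9), its HCFC1 level was 160.8 TMM-scaled CPM (next 233), its UBL5 level 64.9 (next 51.3), its GCC2 level 45.1 (next 54.4) and its SLC35D2 level 2.53 (next 4.66). In each of these steer 451 was the library of its set nearest to the set coded 12. Steer 201 had the highest DNM2 level of the set coded 01, at 247 TMM-scaled CPM (next 220.3), and steer 219 the lowest LYPD3 level, at 2.90 (next 4.07). In the set coded 12, steer 115 had the fewest reads, 10964642 (next 11530484).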

How the results depend on the processing

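The gene count of 9951 became 3739 within letter A, 0 within letter B, 6298 without steers 105, 155 and 317, and 1891 without steers 105, 155, 317 and 345, fits with fewer libraries. Under each other setting it stayed within 1.5 times of 9951, with 9766 by edgeR, 10153 by DESeq2, 9718 with CPM as deposited, 8109 without steers 155 and 345, and 9183 to 10452 when 1 library was left out. The settings without 2 or 4 steers, the last digit of the code as a covariate (9981) and the 12 libraries of letters A and B were added after seeing the data. The interaction counts were 0 under every alternative run.

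Within letters A and B, where no p can go below 0.1, the differences were -683 and -536 genes detected, 5.97 and 4.54 percentage points for the 100 most abundant genes, -0.220 and -0.161 for the TMM factor, and 52.4 and 50.1 for PC1. Without the 4 steers, genes detected differed by -290.1, the TMM factor by -0.0326 and the share by 0.683, none past the threshold, and the share was 2.85 without steers 105, 155 and 317. PC1 still differed by 25.3 without the 4 steers (exact permutation p = 0.0222, adjusted p = 0.133). That p is the smallest that 45 splits can give. The share of the 10 most abundant genes reversed, at -0.735. PC2 reversed to 2.85 with all genes and 6.58 within letter A. With 1 library left out, reads differed by -799954 to -254292, genes detected by -609 to -465, the share by 3.82 to 5.64, the TMM factor by -0.200 to -0.139, PC1 by 42.3 to 54.6 and PC2 by -2.35 to 0.917.

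Of the 55 named genes followed through the alternatives, log2 differences reversed with CPM as deposited for MAN2B1 (-0.020), PLBD2 (-0.050), DNAJB1 (-0.018) and LYPD3 (-0.17), and without the 4 steers for S100A11 (-0.13), PKP3 (-0.18), DNM2 (0.032) and LYPD3 (-0.21). LYPD3 also reversed within letter B (-0.024), without steers 105, 155 and 317 (-0.059), without steer 105 (-0.021) and without steer 219 (-0.026), within a range of -0.026 to 0.15 when 1 library was left out. Without the 4 steers, 35 of the 55 kept their direction but were no longer called. Where not given, the cause was not tested. The labels give no replicate numbers. In the 12 libraries of letters A and B, whose letter and last digit occur in both sets, 9593 genes were called, and 9169 with letter and last digit as a replicate block of 6 pairs. What these digits mean is not known, so they are not shown to pair the steers. Of the 55 genes, the block ended the call of MAN2B1, which was also lost in these 12 libraries without it. Among other genes named, LLGL2 and ATP6AP1 were not called under the block (-0.24 and 0.15, adjusted p of 0.0906 and 0.111, limma) and DSTN was (0.37, adjusted p = 0.0399). Depth limits genes near 3 reads.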

Other observations

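PC2, which did not separate the sets, followed the last digit of the column code. The 5 libraries with a last digit of 1 (steers 11, 201, 451, 105 and 317) scored 4.79 to 9.98, and the 9 libraries with a last digit of 2 or 3 scored -5.76 to -1.77. The pattern was seen in the data and was not tested, and the meaning of the last digit is as little explained as that of the other digits.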
